A study of Mus musculus with 9 samples.

Results

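The genes described here encode axon guidance ligands and receptors, and they were followed across 3 regions of the mouse brain, namely the bed nucleus of stria terminalis (BNST), the nucleus accumbens (NAc) and the dorsal striatum (dStr). They were taken by name, as every Affymetrix Mouse430_2 probe set with 1 gene symbol that begins with Sema, Plxn, Epha, Ephb, Efna, Efnb, Robo, Slit and a digit, Unc5, Ntn and a digit, or Ntng, or that is Nrp1, Nrp2 or Dcc. This gave 162 probe sets for 73 of the 18193 gene symbols that the array table gives. For 65 of the 73 genes at least 1 probe set passed the filter on dim probe sets, which asked that 3 or more of the 9 arrays read above their own 40th percentile, and 120 of the 162 probe sets did so. The rule also took in Unc50, Unc5cl and the antisense transcript Plxna4os1, which carry such a name but are not guidance receptors. The other 70 genes were 37 ligand and 33 receptor genes.

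The study compared gene expression between these regions, of which the BNST belongs to the extended amygdala and the NAc forms the ventral striatum. Mice were anaesthetised with isoflurane and decapitated, and punches were taken from semi-frozen coronal brain slices. The groups were BNST (3 samples), NAc (3 samples) and dStr (3 samples), each sample being labelled a biological replicate and read on 1 array. The labels used here give no strain, sex, age, genotype or drug treatment, and they do not say whether replicates came from separate animals, so the p-values measure the spread between these samples.

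Axon guidance molecules steer growing axons and remain in use at adult synapses. Semaphorins act through plexins, the secreted class 3 members mostly with a neuropilin as co-receptor. Slits repel axons through Robo receptors, and netrin-1 attracts through Dcc and repels through Unc5 receptors. Ephrins and Eph receptor kinases are both bound to the membrane and signal on contact, with the A and B classes mostly kept apart. In the striatum and its neighbours these systems are known for sorting cells into compartments and for guiding incoming cortical, thalamic and midbrain axons.

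Array medians lay between 93.9 and 102 intensity units and every array shared a lowest value of 15.0 (14.9699), at which 2270 to 2698 of the 45037 probe sets stood. The markers went with the labelled tissues, but their lists were chosen with earlier results of these data known. They are therefore no independent check of the labels. All 5 BNST markers (Crh, Tac2, Calb2, Asb4 and Zic1) were higher in BNST than in NAc or dStr, and all 8 measured striatal projection neuron markers were lower in BNST than in dStr. The summed intensity of these 8 was 3049 to 6842 in BNST, 12567 to 19739 in NAc and 21747 to 24094 in dStr, so they were not absent from the BNST punches. No cortex marker passed the filter on dim probe sets, with Slc17a7 at 41.8 to 61.8 on all arrays. Arrays BNST 1 and NAc 1 differed most from the rest of their own region. Over the 14208 genes tested BNST 1 correlated best with NAc 3 (r = 0.965), whereas over the 65 guidance genes it correlated best with BNST 3 (r = 0.943, and 0.924 with NAc 3). NAc 1 correlated with NAc 2 and NAc 3 at 0.938 and 0.909, while NAc 2 and NAc 3 correlated at 0.964. These correlations are across genes, which are not replicates. The counts of genes that passed are also given without both arrays.

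Guidance genes differed between the regions in both directions, and mostly between BNST and dStr. Differences are given on the log2(intensity + 16) scale from 1 limma model over the 9 arrays, with p-values adjusted by Benjamini-Hochberg over all 14208 genes, and a gene passed when its adjusted p was under 0.05. Between BNST and dStr 25 of the 65 guidance genes (38.5%) passed, against 14.3% of all genes tested. Of these 25, 12 were higher in BNST (18.5%, against 4.94% of all genes) and 13 lower (20%, against 9.33%). Between BNST and NAc 5 passed (7.69%, against 2.24%), with 1 higher (0.76% of all genes) and 4 lower in BNST (1.48% of all genes). Similarly, between NAc and dStr 9 passed (13.8%, against 2.05%), with 4 higher (0.95% of all genes) and 5 lower in NAc (1.1% of all genes). The F test over the regions was passed by 24 (36.9%, against 10.3%). With a log2 difference of at least 1 as a further requirement, 12 genes passed between BNST and dStr (18.5%, against 6.1% of all genes), 3 between BNST and NAc (4.62%, against 1.56%) and 4 between NAc and dStr (6.15%, against 1.23%). Fold changes below are on the same scale, which understates the change of dim genes. The median log2 difference of the 65 genes lay near that of all genes, at -0.05 against -0.06 between BNST and dStr. Quantile normalisation moved both medians above 0 (0.07 and 0.06), and with it 16 guidance genes passed as higher and 13 as lower in BNST than in dStr. With BNST 1 and NAc 1 both left out the counts were 32 between BNST and dStr, 14 between BNST and NAc and 15 between NAc and dStr, and each of the 39 calls reported here passed in that fit too. Both arrays were picked for differing most from their own region, and the fits share all other arrays. The shares of all genes in that fit are not given here, so the higher counts are no result about guidance genes in particular. The 3 comparisons share arrays, so their counts are not independent. In bulk punches, fewer cells of a type and less RNA per cell cannot be told apart.

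**Figure D1:**
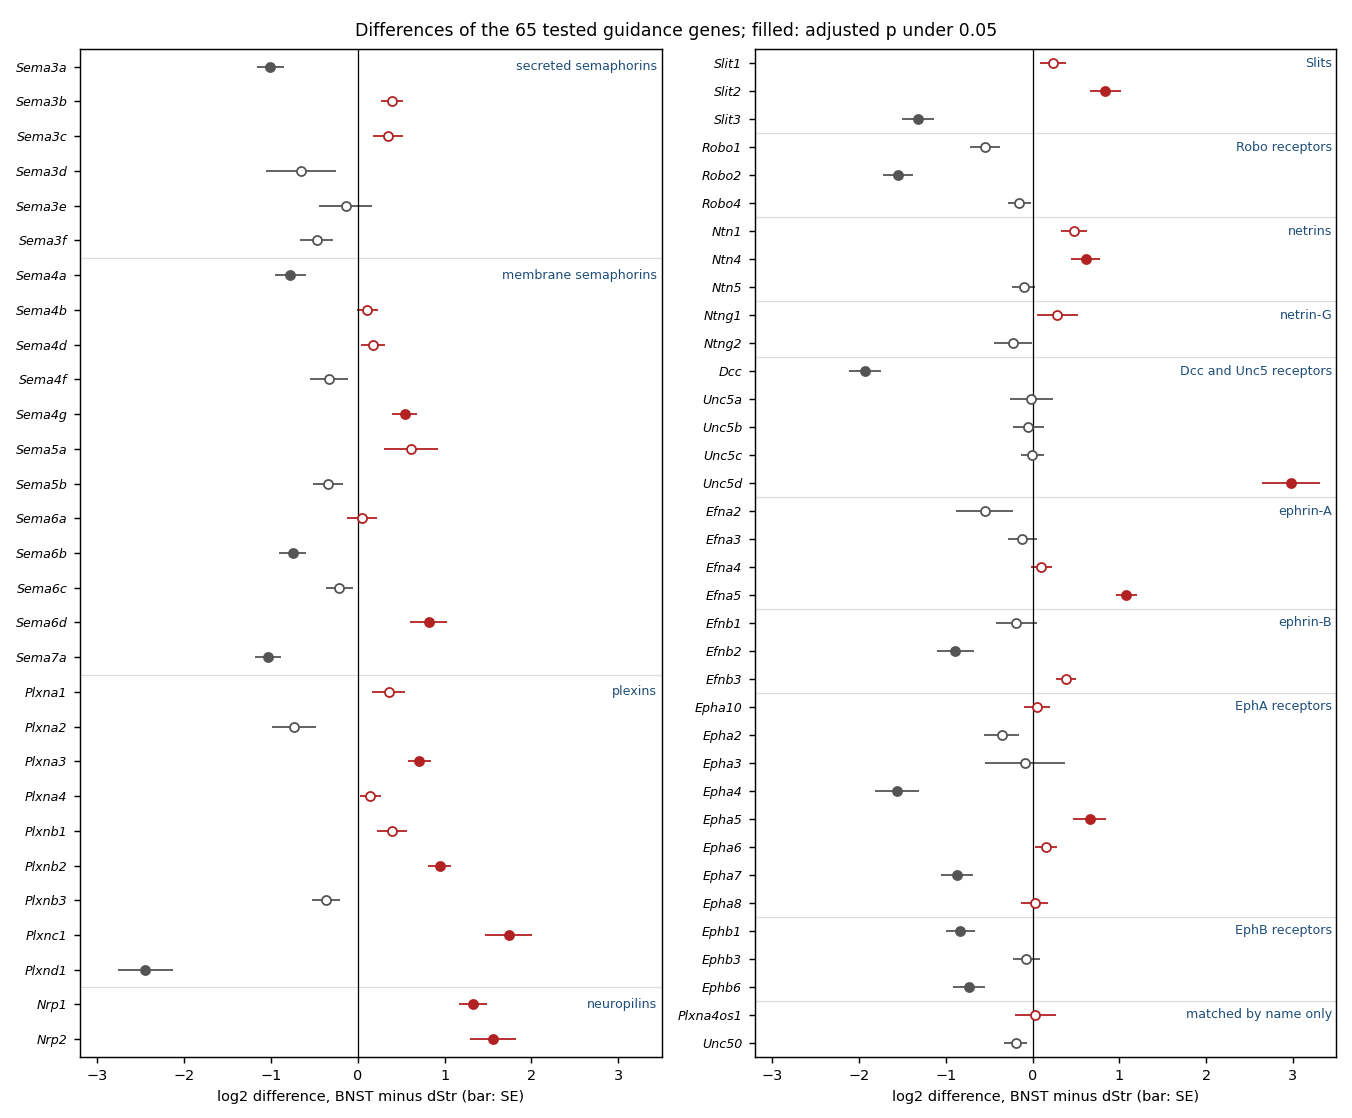
Log2 difference between BNST and dStr for the 65 tested genes, grouped by role, with positive values higher in BNST and bars showing the standard error. Filled points passed at an adjusted p under 0.05, 12 to the right of 0 and 13 to the left, and most groups hold genes on both sides.

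The promoter windows of 4 of these genes with 1 window in the table are shown, Plxnc1 and Nrp2 higher and Plxnd1 and Epha4 lower in BNST than in dStr. Their differences were large, but the choice was not by size alone. Genes without exactly 1 window and genes on 1 of the chromosomes were left out first. The largest differences in each direction were then taken. Unc5d (log2 difference 2.98 between BNST and dStr) differed more than Plxnc1 (1.74), and Dcc (-1.94) more than Epha4 (-1.56). The windows of Unc5d and Dcc are not shown. The 4 genes were chosen after their values were seen. Each runs 5′ to 3′ from 250 bases before to 50 bases after the RefSeq start (build GRCm38.p6), and capitals mark matches on either strand to 5 motifs: the GC box GGGCGG, the CCAAT box CCAAT, the TATA box TATAAA, the forkhead motif TGTTTAC and the cyclic AMP response element TGACGTCA, with the Nrp2 window holding a pair of GC box matches that overlap by 1 base.
Plxnc1, chr10:94944796-94945095, minus strand: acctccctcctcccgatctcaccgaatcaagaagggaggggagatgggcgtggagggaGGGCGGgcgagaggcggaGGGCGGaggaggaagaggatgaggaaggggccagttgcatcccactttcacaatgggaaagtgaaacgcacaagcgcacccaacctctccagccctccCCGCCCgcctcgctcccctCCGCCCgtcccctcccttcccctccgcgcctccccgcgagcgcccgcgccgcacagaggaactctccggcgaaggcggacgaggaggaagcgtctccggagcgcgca
Nrp2, chr1:62703067-62703366, plus strand: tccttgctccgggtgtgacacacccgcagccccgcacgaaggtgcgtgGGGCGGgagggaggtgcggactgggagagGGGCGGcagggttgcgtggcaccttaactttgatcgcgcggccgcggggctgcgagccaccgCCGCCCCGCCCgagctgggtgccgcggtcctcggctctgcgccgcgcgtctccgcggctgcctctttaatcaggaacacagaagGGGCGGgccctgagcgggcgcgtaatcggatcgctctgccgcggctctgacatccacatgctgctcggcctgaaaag
Plxnd1, chr6:115994956-115995255, minus strand: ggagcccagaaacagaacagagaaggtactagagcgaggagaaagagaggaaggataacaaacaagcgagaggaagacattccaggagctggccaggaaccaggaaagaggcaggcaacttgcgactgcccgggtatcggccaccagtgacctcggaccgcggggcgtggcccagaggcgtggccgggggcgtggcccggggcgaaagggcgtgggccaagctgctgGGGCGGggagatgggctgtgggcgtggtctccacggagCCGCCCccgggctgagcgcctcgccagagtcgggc
Epha4, chr1:77515039-77515338, minus strand: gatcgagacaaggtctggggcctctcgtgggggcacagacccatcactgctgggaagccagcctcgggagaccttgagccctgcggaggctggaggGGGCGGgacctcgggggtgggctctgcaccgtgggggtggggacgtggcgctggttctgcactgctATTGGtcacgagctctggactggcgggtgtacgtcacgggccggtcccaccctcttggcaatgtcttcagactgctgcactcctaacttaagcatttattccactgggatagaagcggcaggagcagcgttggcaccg

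The windows of Plxnc1, Nrp2 and Plxnd1 held 4, 5 and 2 GC box matches, and that of Epha4 held 1 GC box and 1 CCAAT box. Over the 54 tested guidance genes with a window, 46 of 68 windows (67.6%) held a GC box, against 35.7% of the 32851 windows in the RefSeq table. The guidance windows were also richer in G and C, with a median of 64.2%, against 52.7% in all windows, and the part of this in the GC box share was not tested. A CCAAT box was in 29.4% of the guidance windows, against 37.4% of all. The GC box stood in 12 of 13 windows of genes that passed as higher in BNST and in 13 of 19 windows of genes that passed as lower against dStr, and the CCAAT box in 0 of 13 and 7 of 19. No guidance window held the forkhead motif, which 3.65% of all windows held. Windows of 1 gene can overlap, and a match is a description of letters.

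Among receptors, Unc5d, a netrin receptor of the repulsive Unc5 family that also binds FLRT adhesion proteins, had the largest difference between BNST and dStr. Its intensity was 786, 497 and 513 in BNST, 138, 368 and 366 in NAc and 71.6, 64.2 and 47.2 in dStr. No array of 1 region overlapped another region, and NAc 1 was the lowest NAc array. The log2 difference was 2.98 between BNST and dStr (SE 0.33, adjusted p = 0.000319), a 7.89-fold difference, and 1.89 between NAc and dStr (adjusted p = 0.0165). Between BNST and NAc it was 1.09 (adjusted p = 0.146). Without NAc 1 and BNST 1 the NAc to dStr difference was 2.33. For Unc5d between NAc and dStr the adjusted p was 0.0589 to 0.091 when any of NAc 2, NAc 3, dStr 1, dStr 2 or dStr 3 was left out.

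Dcc, the receptor through which netrin-1 attracts axons, ran the other way from Unc5d. Its intensity was 121, 88.4 and 97.6 in BNST, 221, 316 and 313 in NAc and 370.3, 429 and 515 in dStr, again with no overlap between regions. It was 3.82-fold lower in BNST than in dStr (log2 difference -1.94, SE 0.18, adjusted p = 0.000152) and 2.51-fold lower than in NAc (-1.33, adjusted p = 0.00575). A second probe set, 1440487_at, gave -2.02 between BNST and dStr (adjusted p = 0.00923 over the 29293 kept probe sets), whereas the remaining one, 1422162_at, gave 0.11 (adjusted p = 0.732). Averaging the 3 probe sets left the difference from dStr past the test but not that from NAc.

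The other netrin receptors, Unc5a, Unc5b and Unc5c, did not pass in any pair. Unc5a, a repulsive receptor mainly of neurons, had 349.6, 274 and 319 in BNST, 194, 336 and 371 in NAc and 373, 230.4 and 366 in dStr (-0.01 between BNST and dStr, adjusted p = 0.979). Unc5b, also known from blood vessels, had 201, 180.5 and 171 in BNST, 137, 137 and 215 in NAc and 220.2, 165 and 191 in dStr (-0.05 between BNST and dStr, adjusted p = 0.896). The arrays of the regions overlapped for both. Unc5c had 301, 289 and 261 in BNST, 421, 444 and 368 in NAc and 316, 283 and 256 in dStr, with all NAc arrays above the others, and it passed the F test (adjusted p = 0.0454) but neither pairwise test with NAc (adjusted p = 0.087 against BNST and 0.107 against dStr). Netrin-1 itself, Ntn1, was likewise highest in NAc, at 224, 219 and 239, against 104, 132 and 93.9 in dStr, which gave a difference of 0.96 (SE 0.15, adjusted p = 0.00958). In BNST Ntn1 had 184, 137 and 155, between the other regions with no overlap, and neither difference passed (adjusted p = 0.161 against NAc and 0.0648 against dStr). For Ntn1 between NAc and dStr the adjusted p was 0.0571 to 0.0627 when any of dStr 1 or dStr 3 was left out. Ntn4, a laminin-like netrin, was 1.53-fold higher in BNST than in dStr (215, 171 and 219.8 in BNST against 117, 110.0 and 153 in dStr, adjusted p = 0.0362). Its other kept probe set, 1450512_at, gave 0.22 (adjusted p = 0.517), and with the probe sets averaged Ntn4 did not pass. For Ntn4 between BNST and dStr the adjusted p was 0.0685 to 0.142 when any of BNST 1, BNST 3, dStr 1 or dStr 2 was left out. The membrane-anchored netrin-G genes Ntng1 and Ntng2 did not pass in any pair. Ntng1 had 300.0, 294 and 270.4 in BNST, 126, 248 and 226 in NAc and 283, 249 and 181 in dStr, and Ntng2 had 183, 91.9 and 145 in BNST, 96.3, 132 and 134 in NAc and 157, 143 and 185 in dStr. The log2 differences between BNST and NAc were 0.54 and 0.16, though the probe set 1449286_at of Ntng1 gave 0.87 there (adjusted p = 0.0408).

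**Figure D2:**
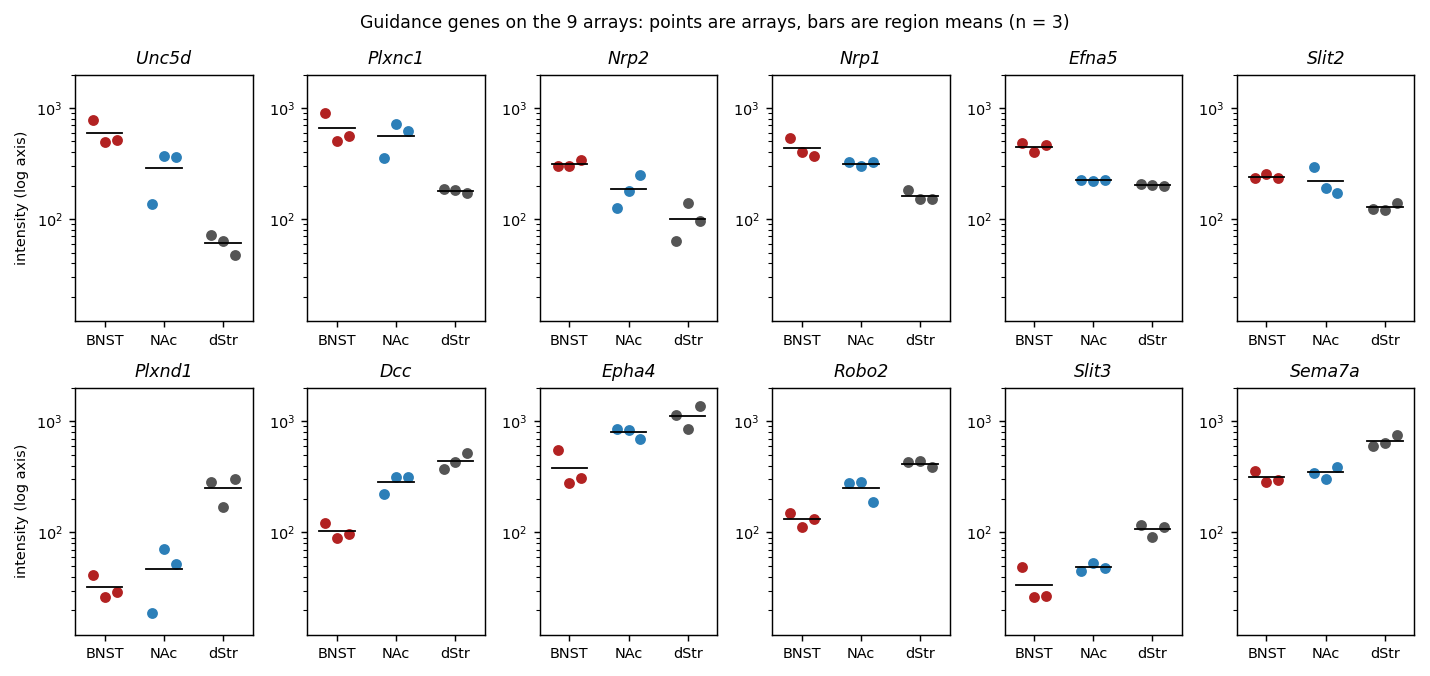
Intensity of 12 guidance genes on each of the 9 arrays, on a log axis, with bars at the region means. The upper 6 genes were higher and the lower 6 lower in BNST than in dStr, with no overlap between the arrays of those regions in any panel.

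Both neuropilin genes stood above dStr in BNST, and the plexin genes were split. Nrp1, the co-receptor of semaphorin 3A, had 542, 399 and 372 in BNST, 327, 298 and 324 in NAc and 184, 153 and 153 in dStr, and its regions did not overlap. Its difference from dStr was 1.33 in BNST (SE 0.16, adjusted p = 0.000452) and 0.89 in NAc (adjusted p = 0.0166). Nrp2, a co-receptor of semaphorin 3F, had 299, 299.9 and 340.0 in BNST, 126, 180.1 and 248 in NAc and 63.4, 141 and 96.4 in dStr. Its difference between BNST and dStr was 1.55 (SE 0.27, adjusted p = 0.0035). All 4 kept probe sets of each neuropilin gene passed between BNST and dStr in the probe-set fit, at 0.70 to 1.33 for Nrp1 and 1.46 to 2.30 for Nrp2. The dimmest of Nrp2, 1447343_at, read 75.8, 109 and 83.4 in BNST and 17.8 to 61.9 on the other arrays. It would not have been kept without its BNST arrays, so its direction adds no support. Between NAc and dStr the representative probe set of Nrp2 did not pass (adjusted p = 0.2), while its other 3 did, at 0.89 to 1.52. For Nrp1 between NAc and dStr the adjusted p was 0.0578 to 0.0923 when any of NAc 3, dStr 2 or dStr 3 was left out.

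Plxnc1, the receptor of semaphorin 7A, was high in both BNST and NAc. It had 895, 508 and 563 in BNST and 351, 721 and 616 in NAc, against 185, 183 and 171 in dStr, so that both regions lay above dStr and overlapped each other. The differences from dStr were 1.74 in BNST (SE 0.27, adjusted p = 0.00195) and 1.50 in NAc (adjusted p = 0.0168). Of its 3 other kept probe sets 1450905_at also passed in both comparisons (0.91 and 0.81) and the dimmer 1450906_at and 1443434_s_at in neither. With the probe sets averaged, Plxnc1 passed between BNST and dStr but not between NAc and dStr. For Plxnc1 between NAc and dStr the adjusted p was 0.0652 to 0.0873 when any of NAc 2, NAc 3, dStr 1, dStr 2 or dStr 3 was left out.

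Plxnd1, the receptor of semaphorin 3E, had the opposite pattern. It had 41.4, 26.0 and 28.8 in BNST and 18.7, 70.4 and 51.5 in NAc, against 286, 168 and 299.7 in dStr, where each array lay above all arrays of the other regions. It was 5.45-fold lower in BNST (log2 difference -2.45, SE 0.32, adjusted p = 0.000802) and 4.43-fold lower in NAc (-2.15, adjusted p = 0.00722), and both calls passed without any 1 array. The BNST and NAc values were near the shared lowest value, and with pseudocounts of 1 and 64 the difference between BNST and dStr was -2.91 and -1.69. Plxnd1 would not have passed the filter on dim probe sets without its dStr arrays, where it was high.

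For Plxnb2, a receptor for class 4 semaphorins, the values were 191, 203 and 237 in BNST, against 103, 103 and 98.7 in dStr, 1.92-fold higher (adjusted p = 0.00115). Plxna3, which pairs with neuropilins, had 235, 246 and 252 in BNST against 133, 167 and 131 in dStr, 1.64-fold higher (adjusted p = 0.00571), with a second, dimmer probe set at 0.22 (adjusted p = 0.548). Of the 9 measured plexin genes these were the 3 higher (Plxnc1, Plxnb2 and Plxna3) and the 1 lower (Plxnd1) in BNST than in dStr, and 5 did not pass. The plexins that did not pass include the receptors for several semaphorin classes. Plxna1, a neuropilin partner, had 212, 158 and 153 in BNST, 99.8, 140.0 and 166 in NAc and 143, 117 and 135 in dStr (0.36 between BNST and dStr, adjusted p = 0.245). Plxna4, a partner in semaphorin 3A signalling, had 476, 560.1 and 586 in BNST, 543, 535 and 546 in NAc and 504, 477 and 478 in dStr (0.14 between BNST and dStr, adjusted p = 0.478). Plxnb1, the receptor of semaphorin 4D, had 384, 310.5 and 335 in BNST, 273, 262 and 289.9 in NAc and 296, 196 and 290.3 in dStr (0.39 between BNST and dStr, adjusted p = 0.152). In BNST all arrays of Plxna1 and Plxnb1 lay above those of dStr, although neither passed. Plxna1, Plxna4, Plxnb1 and Plxnb3 ran from -0.37 to 0.39, and Plxna2 stood at -0.73 (adjusted p = 0.0814).

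Plxna2, a receptor for transmembrane class 6 semaphorins, depended on the probe set. Its representative 1453286_at had 429.7, 223 and 252 in BNST and 351, 586 and 563 in NAc, where the arrays overlapped, and 472, 466 and 542 in dStr. Its other 3 kept probe sets were all lower in BNST past the test, at -1.43 to -0.97 against dStr and -1.28 to -0.82 against NAc. The probe set 1429772_at, for example, had 155, 95.4 and 72.9 in BNST, 196, 319 and 329 in NAc and 297, 269 and 357 in dStr.

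Of the semaphorin ligands, Sema3a and Sema7a were higher in dStr than in BNST or NAc. Sema3a, a secreted repellent, had 133, 100.3 and 119 in BNST, 131, 106 and 97.9 in NAc and 256, 219 and 284 in dStr, and all dStr arrays lay above the rest. Its log2 difference from dStr was -1.01 in BNST (SE 0.16, adjusted p = 0.00208) and -1.07 in NAc (adjusted p = 0.00669), and both calls passed without any 1 array. Sema7a, a membrane-anchored semaphorin, had 359.7, 287 and 296 in BNST, 345, 303 and 392 in NAc and 593, 635 and 756 in dStr. Its log2 differences from dStr were -1.04 in BNST (SE 0.15, adjusted p = 0.00156) and -0.90 in NAc (adjusted p = 0.0135). For Sema7a between NAc and dStr the adjusted p was 0.0557 to 0.0798 when any of NAc 2, dStr 2 or dStr 3 was left out. Sema7a and its receptor gene Plxnc1 both differed from dStr in BNST and NAc, in opposite directions.

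The other secreted semaphorins, Sema3b, Sema3c, Sema3d, Sema3e and Sema3f, did not pass with their representative probe sets. Sema3c, a ligand of both neuropilins, had 133, 173 and 157 in BNST, 142, 190.4 and 212 in NAc and 101, 117 and 134 in dStr (0.35 between BNST and dStr, adjusted p = 0.21). Sema3f, the main ligand of neuropilin-2, had 576, 667 and 608 in BNST, 682, 851 and 579 in NAc and 1065, 881 and 681 in dStr (-0.47 between BNST and dStr, adjusted p = 0.127). For Sema3e, the ligand of plexin D1, the representative 1425906_a_at had 299.9, 588 and 579 in BNST, 722, 585 and 324 in NAc and 545, 453 and 564 in dStr, with all regions overlapping (log2 difference -0.14 between BNST and dStr, adjusted p = 0.807). The probe set 1419717_at of the same gene had 68.9, 26.3 and 47.6 in BNST, 87.3, 107 and 62.8 in NAc and 202, 360.1 and 234 in dStr, with dStr above all other arrays. Its log2 differences from dStr were -2.16 in BNST (adjusted p = 0.00109) and -1.45 in NAc (adjusted p = 0.0361). A further probe set, 1442226_at, was lower in BNST than in dStr (-1.13, adjusted p = 0.0143), and 1427673_a_at was not (0.05). Which of these probe sets reads the Sema3e transcript best was not tested.

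Among the membrane semaphorins 5 of 12 measured genes passed between BNST and dStr, 2 higher and 3 lower in BNST, or 3 higher and 2 lower with the other probe set of Sema4a, whose probe sets disagree. Sema6d, a ligand of plexin A receptors, had 1071, 667 and 794 in BNST and 454, 434 and 507 in dStr (1.76-fold higher, adjusted p = 0.0272), and Sema4g had 173, 229 and 202 in BNST against 139, 146 and 116 in dStr (1.45-fold higher, adjusted p = 0.0341). Sema6b had 127, 106 and 102 in BNST and 217, 160.2 and 225 in dStr (1.68-fold lower, adjusted p = 0.0103). The other kept probe set of Sema6d, 1448060_at, gave 0.27 between BNST and dStr (adjusted p = 0.305). For Sema6d between BNST and dStr the adjusted p was 0.0582 to 0.0916 when any of BNST 1, BNST 3, dStr 1, dStr 2 or dStr 3 was left out. For Sema4g between BNST and dStr the adjusted p was 0.0535 to 0.136 when any of BNST 2, BNST 3, dStr 1, dStr 2 or dStr 3 was left out. For Sema6b between BNST and dStr the adjusted p was 0.0522 to 0.0537 when any of BNST 3, dStr 1 or dStr 3 was left out.

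The direction of Sema4a could not be settled from its probe sets. Its brighter probe set, 1438934_x_at, was lower in BNST, at 696, 493 and 543, against 943, 1038 and 993 in dStr (-0.78, adjusted p = 0.016). The other, 1448110_at, was higher in BNST, at 257, 207 and 174, against 86.3, 53.3 and 73.2 in dStr (1.40, adjusted p = 0.0018). The suffix x marks probes that can also match other transcripts. For Sema4a between BNST and dStr the adjusted p was 0.0572 to 0.0711 when any of BNST 2, BNST 3, dStr 2 or dStr 3 was left out. The representative probe sets of Sema3f and Sema4f carry the same suffix and did not pass. Sema4b, Sema4d, Sema4f, Sema5a, Sema5b, Sema6a and Sema6c did not pass with their representative probe sets either, from -0.35 to 0.61 between BNST and dStr. Sema4d, the ligand of plexin B1, had 158, 154 and 153 in BNST, 105, 133 and 142 in NAc and 149, 123 and 137 in dStr (0.17 between BNST and dStr, adjusted p = 0.454). Sema5a, a ligand of plexins of the A class, had 125, 55.3 and 57.8 in BNST, 40.8, 85.5 and 95.8 in NAc and 33.7, 45.7 and 51.5 in dStr (0.61 between BNST and dStr, adjusted p = 0.22). Sema5b, its close relative, had 195, 135 and 139 in BNST, 139, 147 and 196 in NAc and 193, 187 and 223 in dStr (-0.35 between BNST and dStr, adjusted p = 0.227). In BNST the arrays of Sema4d and Sema5a lay above those of dStr, while the arrays of this Sema5b probe set overlapped. Its other kept probe set, 1435963_at, had 61.7, 44.4 and 51.3 in BNST, 64.4, 66.8 and 84.3 in NAc and 95.9, 104 and 80.9 in dStr, with BNST below dStr on all arrays (-0.68, adjusted p = 0.0154). Sema6a, a ligand of plexins of the A class, had 209, 163 and 162 in BNST, 187, 156 and 164 in NAc and 140.4, 220.1 and 158 in dStr (0.05 between BNST and dStr, adjusted p = 0.883).

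**Figure D3:**
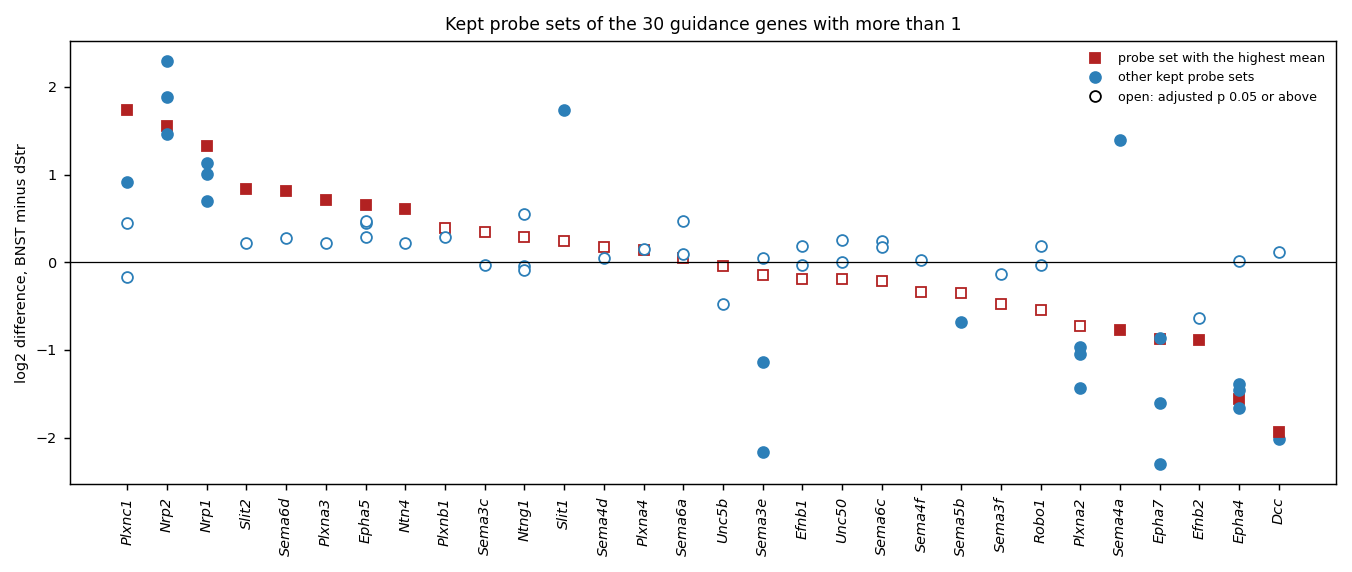
Log2 difference between BNST and dStr for every kept probe set of the 30 genes with more than 1, squares marking the probe set with the highest mean and filled marks an adjusted p under 0.05 in the probe-set fit. The probe sets of Nrp1, Nrp2 and Epha7 lie on 1 side of 0, whereas those of Sema4a lie on both sides at -0.78 and 1.40.

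Slit and Robo genes moved gene by gene. Robo2, a Slit receptor, had 151, 112 and 133 in BNST, 279, 283 and 189 in NAc and 426, 437 and 384 in dStr, with no overlap between regions. It was lower in BNST than in dStr (-1.55, SE 0.17, adjusted p = 0.000319) and than in NAc (-0.84, adjusted p = 0.0365). For Robo2 between BNST and NAc the adjusted p was 0.0664 to 0.154 when any of BNST 2, BNST 3, NAc 1, NAc 2, dStr 1, dStr 2 or dStr 3 was left out. Robo1, its close relative, had 199, 128 and 141 in BNST, 383, 447 and 334 in NAc and 208, 234 and 256 in dStr, with NAc highest and again no overlap. BNST minus NAc was -1.24 (SE 0.18, adjusted p = 0.00644), which passed without any 1 array, and the difference between NAc and dStr was 0.69 (adjusted p = 0.0918). The 2 other kept probe sets of Robo1 gave -0.26 and 0.06 between BNST and NAc and did not pass, and with the probe sets averaged Robo1 did not pass either. Robo4, known from endothelium, did not pass in any pair.

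Slit3 was lower in BNST and in NAc than in dStr, and Slit2 higher in BNST. Slit3 had 49.0, 26.0 and 26.7 in BNST, 44.7, 53.0 and 47.9 in NAc and 116, 91.3 and 112 in dStr, with log2 differences from dStr of -1.32 in BNST (SE 0.18, adjusted p = 0.000991) and -0.92 in NAc (adjusted p = 0.0282). For Slit3 between NAc and dStr the adjusted p was 0.0599 to 0.144 when any of NAc 2, NAc 3, dStr 1, dStr 2 or dStr 3 was left out. Slit3 was among the dimmest genes tested, with a mean of 63.0 over the arrays, at percentile 0.69 of all genes. It would not have passed the filter on dim probe sets without its dStr arrays, where it was high. Slit2 had 233, 257 and 235 in BNST, 296, 192 and 172 in NAc and 123, 122 and 139 in dStr, and its BNST to dStr difference was 0.84 (SE 0.18, adjusted p = 0.0116). For Slit2 between BNST and dStr the adjusted p was 0.0509 when dStr 1 was left out. A second Slit2 probe set gave 0.22 (adjusted p = 0.275). Slit1 did not pass with its representative, which had 259.5, 239.8 and 235 in BNST, 208, 224 and 288 in NAc and 214, 181 and 222 in dStr (0.24 between BNST and dStr). Its probe set 1440056_at had 228, 169 and 207 in BNST, 54.7, 84.3 and 99.0 in NAc and 42.8, 58.1 and 45.8 in dStr. That probe set was higher in BNST than in dStr by 1.74 (adjusted p = 0.00048) and than in NAc by 1.21 (adjusted p = 0.0162).

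Of the ephrin ligands Efna5 was higher in BNST than in both striatal regions, and Efnb2 lower. It had 486, 398 and 461 in BNST, 227, 219.6 and 225 in NAc and 206, 202 and 200.2 in dStr, and the BNST arrays lay far above the narrow range of the others. It was 1.93-fold higher in BNST than in NAc (log2 difference 0.95, SE 0.12, adjusted p = 0.00361) and 2.12-fold higher than in dStr (1.08, adjusted p = 0.000314), both passing without any 1 array. Efna5 was the 1 guidance gene of 65 that passed as higher in BNST in both comparisons (1.54%, against 0.746% of all genes). Efna2, Efna3 and Efna4 did not pass in any pair. Efna2, a further EphA ligand, had 266, 134 and 229 in BNST, 155, 278 and 354 in NAc and 343, 215 and 379.7 in dStr (-0.55 between BNST and dStr, adjusted p = 0.295). Efna3, likewise an EphA ligand, had 252, 204 and 211 in BNST, 201, 265 and 274 in NAc and 236, 205 and 291 in dStr (-0.12 between BNST and dStr, adjusted p = 0.696). The regions overlapped for both.

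Efnb2, an ephrin of the B class, was lower in BNST. It had 167, 129 and 115 in BNST, 394, 419 and 235 in NAc and 243, 280.3 and 273 in dStr, with BNST below all other arrays. The log2 difference was -1.23 from NAc (SE 0.21, adjusted p = 0.0163) and -0.89 from dStr (adjusted p = 0.0195). For Efnb2 between BNST and NAc the adjusted p was 0.0679 to 0.0929 when any of BNST 2, BNST 3 or NAc 2 was left out. For Efnb2 between BNST and dStr the adjusted p was 0.0508 to 0.0908 when any of BNST 2, BNST 3, dStr 1, dStr 2 or dStr 3 was left out. A second probe set gave -1.08 from NAc (adjusted p = 0.0375) and -0.63 from dStr (adjusted p = 0.0801). Efnb3 had 1309, 1395 and 1484 in BNST, 1043, 1074 and 1043 in NAc and 1068, 990.0 and 1141 in dStr. Its BNST arrays lay above the rest, at log2 differences of 0.40 and 0.38 that missed the threshold (adjusted p = 0.134 and 0.0568). Efnb1, the remaining ephrin-B gene, had 179, 89.1 and 113 in BNST, 104, 150.3 and 169.9 in NAc and 160.3, 128 and 138 in dStr (-0.19 between BNST and dStr, adjusted p = 0.644). It did not pass in any pair.

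Epha4, a receptor that binds ephrins of both classes, had the largest difference among the representative probe sets of EphA genes. It had 547, 279 and 312 in BNST, 853, 829.5 and 698 in NAc and 1140.3, 854 and 1383 in dStr, where NAc and BNST lay below dStr and did not overlap with each other. The difference between BNST and dStr was -1.56 (SE 0.25, adjusted p = 0.00242) and passed without any 1 array, and that between BNST and NAc was -1.09 (adjusted p = 0.0553). Of its 4 other kept probe sets 3 were lower in BNST than in dStr past the test, at -1.66 to -1.39, and the fourth, 1421928_at, gave 0.02.

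Epha7, like Epha4 a receptor for ephrin-A5, had 108, 129 and 154 in BNST, 219, 218 and 139 in NAc and 242, 265 and 243 in dStr, with a difference of -0.87 between BNST and dStr (SE 0.19, adjusted p = 0.0109). All 4 kept probe sets passed as lower in BNST than in dStr, from -2.30 to -0.87. The probe set 1451991_at, at the low end, had 39.1, 18.6 and 21.1 in BNST and 116, 124 and 53.8 in NAc, against 172, 184 and 211 in dStr, and was also lower in BNST than in NAc (-1.40, adjusted p = 0.033). Epha5 had 379.9, 288 and 283 in BNST and 204, 207 and 171 in dStr (1.58-fold higher, adjusted p = 0.0456), with its 3 other probe sets in the same direction (0.29 to 0.47) and none past the test. With the probe sets averaged Epha5 did not pass. For Epha5 between BNST and dStr the adjusted p was 0.0588 to 0.158 when any of BNST 1, BNST 2, BNST 3, NAc 2, dStr 1, dStr 2 or dStr 3 was left out. Epha2, Epha3, Epha6, Epha8 and Epha10 did not pass in any pair, and the dStr 1 value of Epha3 stood at the shared lowest value. Epha3, a receptor for ephrin-A5, had 79.2, 50.0 and 37.4 in BNST, 61.3, 95.4 and 110.3 in NAc and 15.0, 116 and 82.1 in dStr (-0.09 between BNST and dStr, adjusted p = 0.927). Epha2, the gene with the brightest representative, had 1318, 1618 and 1050.1 in BNST, 1458, 1886 and 1961 in NAc and 1866, 1902 and 1333 in dStr (-0.36 between BNST and dStr, adjusted p = 0.282).

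Of the EphB genes Ephb1, a receptor for ephrin-B ligands, had 311, 256 and 311 in BNST, 313, 451 and 312 in NAc and 553, 550.1 and 494 in dStr, 1.78-fold lower in BNST than in dStr (adjusted p = 0.00741). Ephb6, whose kinase domain is inactive, had 69.4, 69.8 and 64.3 in BNST, 77.0, 37.5 and 60.9 in NAc and 134, 110.4 and 127 in dStr, with differences from dStr of -0.73 in BNST (adjusted p = 0.0262) and -0.94 in NAc (adjusted p = 0.0314). For Ephb6 between BNST and dStr the adjusted p was 0.073 to 0.102 when any of BNST 2, BNST 3, dStr 1 or dStr 3 was left out. For Ephb6 between NAc and dStr the adjusted p was 0.0601 to 0.155 when any of BNST 3, NAc 2, NAc 3, dStr 1, dStr 2 or dStr 3 was left out. Ephb3, a further ephrin-B receptor, had 98.4, 138 and 119.9 in BNST, 115, 150.1 and 142 in NAc and 133, 128 and 113 in dStr (-0.07 between BNST and dStr, adjusted p = 0.808). It did not pass in any pair.

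**Figure D4:**
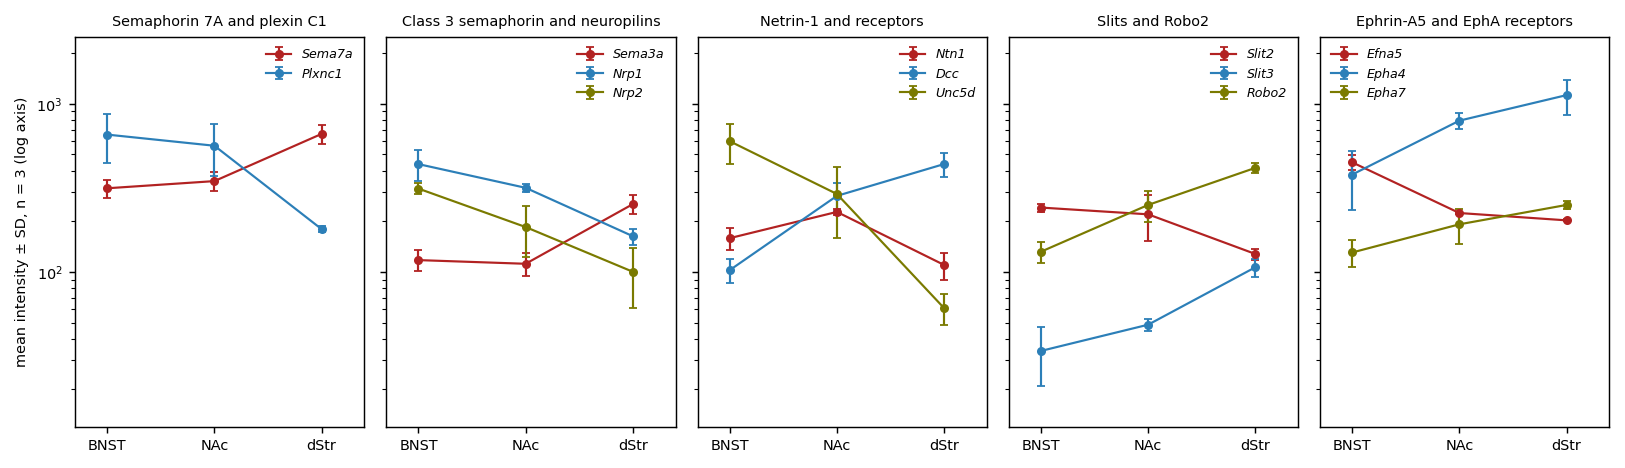
Mean intensity with SD (n = 3 arrays) of ligand and receptor genes in the 3 regions, on a log axis. The slope of a line across regions can be compared between genes and its height cannot, since probe sets differ in brightness, and Sema7a and Plxnc1 slope in opposite directions from BNST and NAc to dStr.

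Set out by ligand and receptor, the genes of several pathways did not share 1 direction. Between BNST and dStr 5 of 33 measured ligand genes were higher and 6 lower in BNST, or 6 higher and 5 lower with the other probe set of Sema4a. Of 30 measured receptor genes 7 were higher and 7 lower, where 4.94% of all genes were higher and 9.33% lower. Between NAc and dStr 1 ligand gene was higher and 3 lower in NAc, and 3 receptor genes were higher and 2 lower, where 0.95% of all genes were higher and 1.1% lower. Sema3a was lower and its co-receptor Nrp1 higher in both BNST and NAc than in dStr. Efna5 was higher and the receptor genes Epha4 and Epha7 lower in BNST than in dStr, whereas Epha5 was higher. Slit3 and Robo2 were both lower in BNST than in dStr, and Slit2 was higher, though its second probe set did not pass. The other kept probe set of Slit1 was higher in BNST too, though its representative did not pass. Among the netrin receptors Unc5d was higher and Dcc lower. Efnb2, Ephb1 and Ephb6, which passed among the ephrin-B and EphB genes, were all lower in BNST than in dStr. Plxnd1 was lower in BNST too, as were 2 of the 3 other kept probe sets of Sema3e, though its representative did not pass.

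NAc lay between BNST and dStr for most of these genes, as it did for most of all genes that passed. Of the 25 guidance genes that passed between BNST and dStr, the NAc mean was between the other means for 21 (84%), against 91.8% of the 2027 genes that passed, and it was nearer to BNST for 16 (64%), against 48.9%. The exceptions were Efnb2, which was highest in NAc, Epha5, with NAc above BNST, and Ephb6 and Sema3a, with NAc below BNST. NAc was not shown to lie outside the range of the other regions for any of them, since its difference from the nearer one did not pass (adjusted p = 0.563 for Efnb2 against dStr, and 0.956, 0.766 and 0.938 for Epha5, Ephb6 and Sema3a against BNST). NAc was nearer to dStr for Efna5, Dcc and Epha4, among others, and nearer to BNST for Plxnd1, Plxnc1, Sema7a, Slit2 and Slit3. Of the 65 genes 5 passed as highest in dStr in both of its comparisons (Plxnd1, Sema3a, Sema7a, Slit3 and Ephb6, 7.69%, against 1.05% of all genes) and 3 as lowest in dStr (Unc5d, Plxnc1 and Nrp1, 4.62%, against 0.781%). Plxnd1 and Slit3 would not have passed the filter on dim probe sets without their dStr arrays. Their place as highest in dStr is therefore tied to their being tested at all. With no filter, Ephb6 did not pass between NAc and dStr. Dcc, Robo2 and Efnb2 passed as lowest in BNST (4.62%, against 1.32%).

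The arrays of BNST and dStr did not overlap for 38 of the 65 genes (58.5%), against 36.4% of all genes tested. Between NAc and dStr they did not overlap for 28 (43.1%, against 19.1%) and between BNST and NAc for 21 (32.3%, against 14.6%). The region means fell in the order BNST, NAc, dStr for 18 genes (27.7%, against 22.3%) and rose in it for 20 (30.8%, against 34.4%). The shares without overlap include genes that did not pass the test, such as Ntng1 and Plxnb1 between BNST and NAc.

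Leaving out 1 array changed the smaller counts. Between BNST and NAc, where 5 passed, 8 did so when BNST 1 was left out and 3 when BNST 2, BNST 3 or NAc 2 was. Between NAc and dStr, where 9 passed, 5 did so when NAc 2 was left out, 4 when NAc 3 or dStr 1 was, 3 when dStr 2 was and 2 when dStr 3 was. Between BNST and dStr the 25 ranged from 17 to 26, with 16 of the 25 passing without any 1 array. The 24 of the F test became 14 without BNST 3 and 16 without dStr 1 or dStr 3. With the replicate number as a block, 5 genes passed between NAc and dStr.

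Genes that act with these ligands and receptors were also split. Of 24 measured genes for co-receptors and adhesion partners, taken from a list of 26, 3 were higher and 7 lower in BNST against dStr, where 4.94% of all genes were higher and 9.33% lower. Flrt3, whose product binds Unc5 receptors, averaged 331 ± 103 in BNST (± SD, n = 3 arrays, as for the means that follow), 883 ± 244 in NAc and 851 ± 25.2 in dStr, with log2 differences of -1.38 (adjusted p = 0.0179) between BNST and NAc and -1.36 (adjusted p = 0.00448) between BNST and dStr. Lrrc4c, which encodes the netrin-G1 ligand, was lower in BNST than in dStr (-1.58, adjusted p = 0.0123). The contactin genes Cntn4 and Cntn5, which encode adhesion molecules, were lower than in dStr in BNST (-1.49 and -1.59) and in NAc (-1.59 and -1.58). The repulsive guidance molecule genes Rgma and Rgmb and the adhesion gene Dscam were the 3 higher in BNST (0.76, 1.03 and 0.66).

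Of 57 measured genes for intracellular effectors, from a list of 63, 5 were higher (8.77%) and 6 lower (10.5%) in BNST than in dStr, against 4.94% and 9.33% of all genes. In the other comparisons 1 effector gene was lower in BNST than in NAc (1.48% of all genes were), and 2 were higher in NAc than in dStr (0.95% of all genes were). Ngef, which encodes the exchange factor ephexin-1 that binds EphA4, averaged 1097 ± 373 in BNST, 2269.7 ± 241 in NAc and 3431 ± 159 in dStr, -1.69 between BNST and dStr (adjusted p = 0.000952) and -1.09 between BNST and NAc (adjusted p = 0.0376). Chn2, which encodes a Rac-inactivating chimaerin, averaged 379.9 ± 49.2 in BNST, 607 ± 172 in NAc and 173 ± 19.5 in dStr, and was higher than dStr in both (log2 differences 1.07 and 1.69). Enah, an actin regulator that acts downstream of netrin and Slit receptors, was also higher in both (1.10 and 0.87). Between BNST and dStr the median log2 difference was -0.05 for the co-receptor list and -0.06 for the effector list, against -0.06 for all genes. Of the co-receptor list, 1 gene (Flrt3) was lower in BNST than in NAc and 2 (Cntn4 and Cntn5) lower in NAc than in dStr.

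Markers of other cell types moved with the regions too. Between BNST and dStr, 3 of 4 measured ependyma markers and 3 of 6 astrocyte markers were higher in BNST, with summed intensities of 955 to 2421 in BNST, against 112 to 135 in dStr, for ependyma and 4951 to 6480, against 3141 to 3904, for astrocytes. Microglia markers were lower in BNST for 4 of 6 (sums of 2454 to 3106 in BNST, against 4090 to 4280 in dStr) and endothelium and pericyte markers for 1 of 6 (1548 to 1756 in BNST, against 2362 to 2388 in dStr). Of the choroid plexus markers 1 of 4 was higher in BNST, Otx2, which stood at the lowest value on all NAc and dStr arrays. Oligodendrocyte markers (7 measured) and precursor markers (2 measured) did not pass in any pair, with oligodendrocyte sums of 12984 to 14498 in BNST, 11252 to 14841 in NAc and 13259 to 14770 in dStr. The part of these cell types, and of the striatal projection neuron markers above, in the guidance gene differences was not tested. Of 3 thalamus markers, Slc17a6 and Prkcd were higher in BNST than in NAc and dStr, and the summed intensity was 1777 to 2363 in BNST, against 1795 to 2478 in dStr. Between NAc and dStr 2 of 5 BNST markers were higher and 2 of 8 striatal projection neuron markers lower in NAc. No marker of ependyma, choroid plexus, astrocytes, oligodendrocytes, microglia or endothelium passed there, which does not show equal levels. The microglia sums were 3239 to 3734 in NAc, and the endothelium and pericyte sums 1736 to 1939, both below all dStr arrays. The sums of the ependyma, choroid plexus, astrocyte and oligodendrocyte lists overlapped between NAc and dStr.

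The brightest representative probe sets were those of Epha2, Efnb3, Unc50, Epha4 and Sema4a, with mean intensities of 1599, 1172, 864, 766 and 747 over the 9 arrays, an order that reflects the probes as well as the RNA. Unc50 had 882, 701 and 742 in BNST, 931, 956 and 905 in NAc and 836, 867 and 954 in dStr. Of the name-only members Unc50 and Plxna4os1 were measured and did not pass in any pair, and Unc5cl stayed below the filter. The 8 genes below the filter were Efna1, Epha1, Ephb4, Ntn3, Robo3, Sema3g, Sema4c and Unc5cl. Their 12 probe sets read 15.0 to 77.3 over all arrays, and they were left out of the fit.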

How the data were processed

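Total RNA from each punch was amplified and hybridised to an Affymetrix Mouse430_2 array, per the labels. The authors deposited 1 table of probe set intensity values on a linear scale, and how they were summarised and normalised is not given in the sources used here. No array was rescaled, since the array medians differed by at most 0.119 on the log2 scale. Probe sets were named from the platform annotation (34945 with 1 symbol, 932 with several and 9160 with none). Where a gene had several kept probe sets, the brightest on average stood for it. Values were taken as log2(intensity + 16) and fitted with limma 3.58.1 in R 4.3.3, with a mean for each region, 6 residual degrees of freedom and eBayes. The procedure was tested on simulated data. A second fit covered the 29293 kept probe sets. The named genes were those past the threshold, the members of set ligand and receptor pairs and the 5 with the highest mean. The members and lists were chosen with earlier results of these data known. Alternatives covered normalisation, filter, pseudocount, gene summary, replicate block, variance prior, pair-only fits and left-out arrays. Precision is limited by there being 3 arrays a region.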

Additional observations from a re-analysis of the deposited data

How the results depend on the processing

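Of the 39 calls on 27 guidance genes, all passed with quantile normalisation, median centring, pseudocounts of 1 and 64, a trended and robust prior, and with BNST 1 and NAc 1 both left out. Quantile normalisation raised the count between BNST and NAc to 9, and moved the split over all genes between BNST and dStr to 1267 higher and 1165 lower in BNST, against 702 and 1325 without it. Its medians of all genes lay at 0.06, against -0.06. With BNST 1 and NAc 1 both left out the counts rose to 14 between BNST and NAc and 15 between NAc and dStr. Shares of all genes are not given for the fits with arrays left out, so their counts cannot be set against all genes. Fits on the arrays of the pair alone gave 3 between BNST and NAc. A further requirement of a log2 difference of at least 1 left 3, 12 and 4 genes. Leaving out each array in turn gave 3 to 8 genes between BNST and NAc, 17 to 26 between BNST and dStr, 2 to 11 between NAc and dStr and 14 to 27 by the F test, and turned 0 of the 39 directions. Sema4a between BNST and dStr changed sign to 0.31 with its probe sets averaged and to 1.40 with probe sets without a suffix. Averaging probe sets ended 5 other calls, no filter ended 3, and the filter at the 60th percentile ended none of the 35 calls it could test. Deviations of same-numbered arrays from their region means correlated between -0.514 and 0.261, over 0.1 in 2 of 9 pairs. Of the 9 arrays, 0 correlated best with their own number. With 3 arrays a region this cannot show whether same-numbered arrays came from the same animal. With the replicate block the counts were 4, 22 and 5, and 8 of the 39 calls were lost. The cause of these changes was not tested.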
